A study of Danio rerio with 4 samples.

Results

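The 10 genes described here are regulators of blood formation: gata2a, myb, kita, lmo2, tal1, etv6, meis1b, hhex, gata1a and klf1. They were chosen by name, as the probe sets whose only platform gene symbol is one of these, and each of the 10 has 1 probe set on the array, out of 15502 probe sets and 8793 named genes in all. Whole zebrafish embryos were collected at 36 hours post fertilisation (hpf), total RNA was extracted, and it was hybridised to an Affymetrix zebrafish array. The glucose group was grown in E3, the standard embryo medium, with 1% glucose from 12 hpf to collection, and the other group is labelled control. Each group had 2 biological replicates with 1 array each, no strain or transgene is named, and both groups were kept at the same temperature. The labels do not say whether the replicates were separate clutches. The p-values therefore rest only on the spread between these samples, much of it taken from other probe sets of like brightness.

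In vertebrates blood forms in waves. A primitive wave in the early embryo makes mainly red cells, and a later definitive wave makes stem cells that bud from the floor of the aorta. Tal1, a basic helix-loop-helix factor, and Lmo2, an adaptor that does not bind DNA itself, join Gata factors and Ldb1 in 1 complex that sits on the genes of blood precursors. Gata2 is used in stem and progenitor cells and gives way to Gata1 as red cells mature, while Klf1 activates globin and other red cell genes. In zebrafish at this stage primitive red cells circulate and the first definitive stem cells emerge, which is the process the series is about. The comparison asks whether the RNA of these regulators differs between glucose-treated and control embryos.

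Values are probe set intensities on a linear scale, and differences are log2 intensity in glucose minus log2 intensity in controls. As a measure of background, 17 tag probe sets without a fish target were used: the highest of them reached 117.7 and 79.1 on the glucose arrays and 109.1 and 112.0 on the control arrays. Levels of different probe sets depend on their own binding and are not compared with each other. The arrays were alike in brightness, with medians of 171 and 175 in glucose and 171 and 174 in controls. A mean trimmed by 2% of values on either side was 500.15 or 500.16 on every array, so like medians are no independent check. The ratio of 3' to 5' actin signal, a sign of RNA integrity, was 2.49 and 2.14 in glucose and 2.36 and 2.24 in controls. The Pearson correlation of log2 values was 0.9516 between the glucose arrays and 0.9484 between the control arrays. Between arrays of opposite groups it ran from 0.9433 to 0.9506, so the control replicates were less alike than some pairs across groups. Housekeeping differences were 0.01 for actb1, 0.03 for eef1a1l1 and 0.10 for rpl13a. As whole embryos were measured, fewer cells of a type and less RNA per cell cannot be told apart.

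None of the 10 regulators passed the test. In limma with an intensity trend, 0 of 10 had a Benjamini-Hochberg adjusted p under 0.10, where 2.00% of all 13628 tested probe sets did. At an unadjusted p under 0.05 there were 3 of 10 (gata2a and gata1a with higher values in glucose and meis1b with lower ones), against 11.5% of all probe sets (6.22% higher and 5.26% lower). In limma without the trend, 0 of 13628 probe sets passed and 3 regulators had an unadjusted p under 0.05 (gata2a, gata1a and kita), against 8.45% of all. In glucose 6 regulators had higher and 4 lower mean log2 values, with a median difference of 0.25, beside 0.006 over all 8165 named genes tested. Both glucose arrays lay above both control arrays for 5 regulators and below them for 2, where 20.7% of all probe sets lay above, 20.3% below and 41.0% either way. With the dimmest probe sets left out the median of the regulators was smaller, at 0.11 over the 9 with a mean log2 of at least 6 and 0.15 over the 4 with a mean above the tag level.

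**Figure D1:**
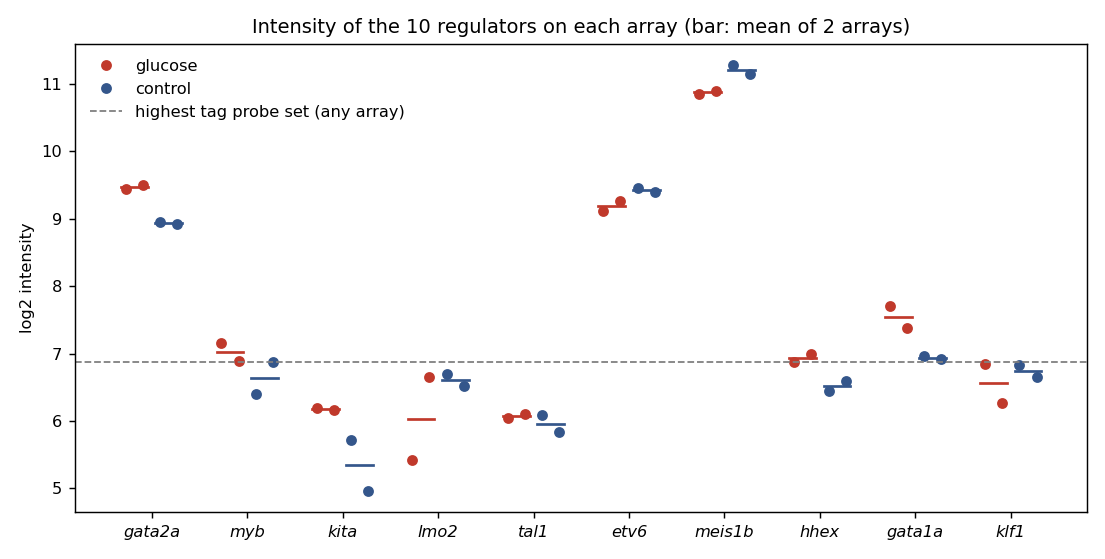
Log2 intensity of each regulator on each array, with glucose (red, left of each pair) and control (blue, right). Points are arrays, bars are the mean of 2 arrays, and the dashed line is the highest tag probe set of any array (an intensity of 117.7). Levels are not comparable between genes; gata2a shows 2 close glucose values above 2 close control values, meis1b and etv6 the opposite order, and the lmo2, tal1 and klf1 groups overlap.

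The zinc finger gene gata2a gave the smallest p of the 10. Its mouse counterpart is needed for the making and upkeep of blood stem cells, and gata2a is also active in vessels and parts of the brain. Whether the gata2a signal came from blood stem cells was not tested. The intensity of gata2a was 699 and 723 in glucose embryos, against 498 and 484 in control embryos. The replicates of each group lay close together, the groups did not overlap, and every glucose array exceeded every control array by between 0.49 and 0.58 log2 units. The mean was 711 ± 17.4 in glucose and 491 ± 9.90 in controls (SD, n = 2 each), a 1.45-fold difference with a 95% interval from 1.16-fold to 1.80-fold. By limma with an intensity trend the log2 difference of 0.53 (standard error 0.15) had an unadjusted p of 0.00221 and an adjusted p of 0.107. That p ranked 281 among 13628 probe sets, just outside the 273 that passed. All 4 arrays read gata2a above their highest tag probe set. The call changed with the processing of the 4 arrays. Among other settings, gata2a passed with a mean log2 of at least 6 (limma adjusted p = 0.0785) and with robust eBayes (0.0928). It did not pass with quantile normalization (0.151), with no filter (0.1275) or without the trend (0.534). With 1 array left out the difference lay between 0.51 and 0.56.

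The definitive stem cell factor myb, without which zebrafish lose their adult-type blood, read 142 and 119 in glucose embryos and 84.1 and 117 in control embryos. The glucose arrays lay above the control arrays, but the nearest pair differed by only 0.02 log2 units while the control arrays differed from each other by 0.47. The difference was 0.39 with a 95% interval from -0.20 to 0.97 (limma with an intensity trend, adjusted p = 0.653), and leaving out control replicate 1 gave 0.15, leaving out control replicate 2 0.62. Only 3 of the 4 arrays, both glucose arrays and control replicate 2, read it above their highest tag.

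The receptor tyrosine kinase gene kita, whose mouse counterpart binds stem cell factor on blood stem cells and which zebrafish need for the migration and survival of pigment cells, had 73.1 and 71.3 in glucose embryos, against 52.7 and 31.2 in control embryos. The groups did not overlap, and the control arrays lay 0.76 log2 units apart. All 4 values were below the highest tag of their array, although above 9 of the 17 tags throughout. The log2 difference was 0.83 with an interval from -0.17 to 1.83 (limma with an intensity trend, adjusted p = 0.539), so no difference was detectable at this signal. Leaving out control replicate 2 gave 0.45 and leaving out control replicate 1 gave 1.21, and neither passed.

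The partners tal1 and lmo2 showed no separation of the groups. The gene tal1, needed for the earliest blood and vessel precursors, had 65.9 and 68.6 in glucose embryos, against 68.1 and 56.8 in control embryos. Its difference of 0.11 had an interval from -0.72 to 0.94 (limma with an intensity trend, adjusted p = 0.953) and was -0.02 without control replicate 2. The adaptor gene lmo2 had 42.6 and 100.2 in glucose embryos, against 103 and 91.9 in control embryos. One glucose array, replicate 1, lay far below the other three, and the glucose pair was 1.23 log2 units apart. The difference of -0.58 had an interval from -1.40 to 0.25 (adjusted p = 0.63) and was 0.04 without glucose replicate 1. No array read tal1 above its highest tag, and only glucose replicate 2 did so for lmo2. That array had the lowest such tag, at 79.1. Control replicate 1 read lmo2 higher, at 103, but its highest tag was 109.1.

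The ETS family repressor etv6, required in mice for blood formation in the bone marrow and known from fusion genes in human leukaemia, had 556 and 616 in glucose embryos, against 701 and 676 in control embryos. Both glucose arrays were lower, by between 0.13 and 0.34 log2 units for the 4 pairings of arrays. The difference of -0.23 had an interval from -0.55 to 0.08 (limma with an intensity trend, adjusted p = 0.595).

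The homeobox gene meis1b, which works with Pbx and Hox proteins and is also active in the hindbrain and eye, had 1854 and 1904 in glucose embryos, against 2485 and 2277 in control embryos. The groups did not overlap, and the mean was 1879 ± 35.6 in glucose and 2381 ± 147 in controls (SD, n = 2 each). The difference of -0.34 (standard error 0.12) had an interval from -0.59 to -0.09 and did not pass (limma with an intensity trend, unadjusted p = 0.0104, adjusted p = 0.244). Of 15 other settings it passed only in the fit without control replicate 2, where the difference was -0.40. That fit leaves 1 control array, whose spread is assumed and not measured, so the call carries little weight.

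The homeobox gene hhex, active in blood and vessel precursors and needed for the liver and thyroid, had 117 and 127 in glucose embryos, against 86.6 and 96.8 in control embryos. The groups did not overlap. Its difference was 0.42 with an interval from -0.17 to 1.00 (limma with an intensity trend, adjusted p = 0.616), and only glucose replicate 2 read it above its highest tag.

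**Figure D2:**
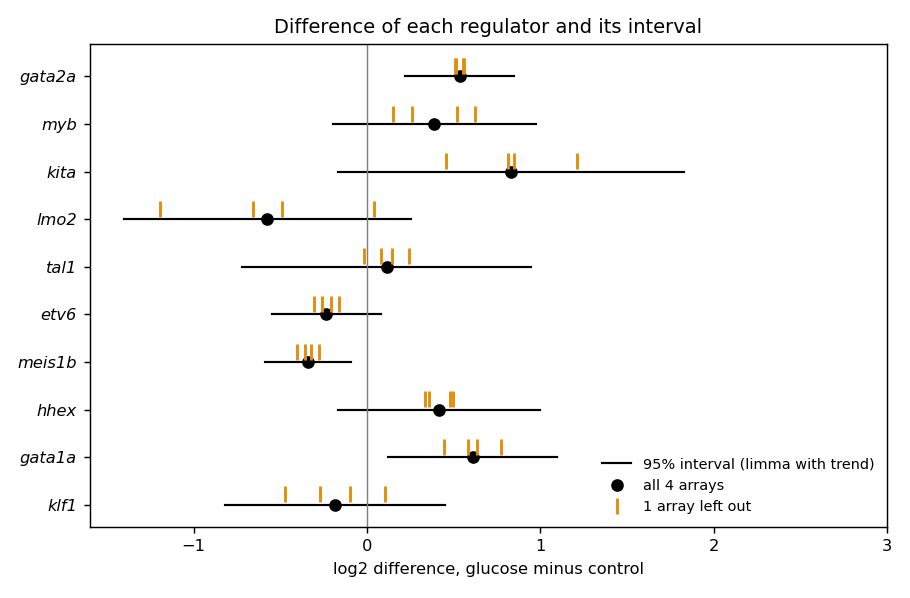
Log2 difference of each regulator, glucose minus control. Black points use all 4 arrays, black lines are 95% intervals from limma with an intensity trend, and orange ticks are the values with 1 array left out. The intervals of gata2a, meis1b and gata1a lie off 0 before adjustment over all probe sets, and the ticks of lmo2, tal1 and klf1 fall on both sides of 0.

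Of the erythroid pair, gata1a, the factor without which zebrafish make almost no red cells, had 209 and 167 in glucose embryos, against 125 and 121 in control embryos. All 4 arrays read it above their highest tag. Both glucose arrays were higher, by between 0.42 and 0.80 log2 units, and the glucose arrays were further apart (0.33) than the control arrays (0.05). The mean was 188 ± 30.3 in glucose and 123 ± 2.82 in controls (SD, n = 2 each), a 1.52-fold difference with a 95% interval from 1.09-fold to 2.14-fold. By limma with an intensity trend the unadjusted p was 0.0178 and the adjusted p 0.301, and in the 15 other settings the adjusted p lay between 0.229 and 0.821. The globin activator klf1 had 115 and 77.0 in glucose embryos, against 114 and 101 in control embryos. Its groups overlapped, only control replicate 1 read it above its highest tag, and the interval of the difference ran from -0.82 to 0.45 (adjusted p = 0.875). The difference was -0.18 with all arrays and 0.10 without glucose replicate 2. The difference between gata1a and klf1 was not tested.

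The spread between replicates fell with brightness over all probe sets. Between replicates the median SD in log2 units was 0.44 at a mean log2 between 5 and 6, 0.275 between 6 and 7 and 0.125 between 9 and 10. The regulators gata2a, etv6, meis1b and gata1a were above the highest tag on all 4 arrays, myb, hhex, lmo2 and klf1 on 1 to 3 arrays, and kita and tal1 on none. Within the 4 bright genes the SD between replicates was 0.03 for gata2a, 0.07 for meis1b, 0.08 for etv6 and 0.17 for gata1a. Among the dim ones it was 0.10 for hhex, 0.13 for tal1, 0.27 for myb, 0.30 for klf1, 0.38 for kita and 0.62 for lmo2, so hhex and tal1 lay below gata1a. The smallest two-sided p an exact permutation of 2 against 2 arrays can give is 0.333, so single genes were tested only in the fit across all probe sets.

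**Figure D3:**
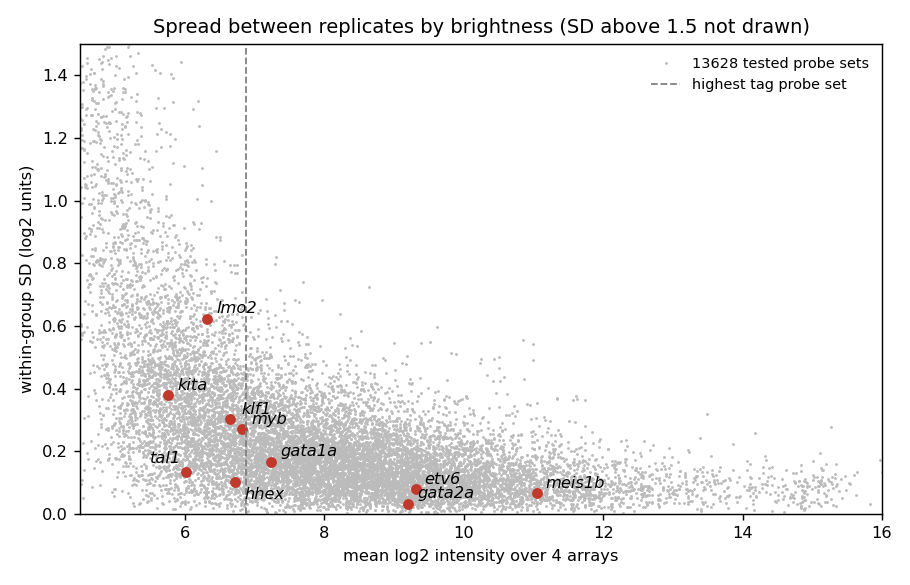
Within-group SD of log2 intensity against mean log2 intensity for the 13628 tested probe sets (grey) and the 10 regulators (red), with the highest tag probe set as a dashed line. The spread falls with brightness; gata2a has an SD of 0.03, where the median between a mean log2 of 9 and 10 is 0.125, and lmo2 has 0.62, where the median between 6 and 7 is 0.275.

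Of 33 partners and cofactors of these regulators, 18 were measured and 17 tested. With all 4 arrays none passed in limma with an intensity trend, where 2.00% of all probe sets did, or without it. With the trend 1 of the 17 had an unadjusted p under 0.05, against 11.5% of all probe sets. The median difference of the partners was 0.02, with 10 higher and 7 lower. Leaving out 1 glucose array gave 0.04 (replicate 1) or 2e-04 (replicate 2). The Ldb1 scaffold gene ldb1a, which holds the Tal1 and Lmo2 complex together, had 1888 and 1998 in glucose embryos, against 2039 and 1881 in control embryos, and its interval ran from -0.27 to 0.24. The helix-loop-helix partners of Tal1, tcf12 and tcf3a, differed by 0.055 and -0.13, and other tcf12 probe sets by between -0.33 and 0.31. The corepressor genes kdm1a, rcor1 and hdac1 differed by 0.10, 0.01 and 0.12. The other scaffold gene ldb1b differed by -0.05, the lymphoid factor ikzf1 by 0.22, the acetyltransferase gene crebbpa by -0.07 and the myeloid factor spi1b by -0.14. The red cell factor nfe2 differed by 0.45 (adjusted p = 0.621), and the Meis partners pbx1a, pbx2, pbx3b and pbx4 by -0.30, 0.02, 0.29 and -0.22. Dimmer probe sets differed by -0.62 and -0.02 for pbx1a, 0.26 for rcor1, -0.18 for ldb1a and -0.49 for spi1b. The smallest p belonged to sp1, a general activator that binds GC boxes, with 407 and 446 in glucose embryos, against 268 and 331 in control embryos, a difference of 0.52 (adjusted p = 0.232). For runx1, the partner of cbfb in stem cell emergence, all 4 arrays were below their highest tag and the probe set was not tested, and cbfb itself differed by 0.13 (adjusted p = 0.919). Signal was also low for other partners: ldb1b, nfe2 and cbfb were above the highest tag on 1 array each, and ikzf1 on 0. Leaving out control replicate 1 or 2 gave partner medians of 0.04 and 0.02.

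The other stem and progenitor genes did not pass either. Of 32 listed, 18 were measured and 16 tested, with 5 higher and 11 lower and a median of -0.06. There were 0 calls in limma with the intensity trend, where 2.00% of all probe sets passed, or without it. With the trend 2 of the 16 had an unadjusted p under 0.05, near the 11.5% of all probe sets. Those 2 were the early response factor egr1, at -0.75 (adjusted p = 0.401), and the blood precursor gene drl, at 0.86 (adjusted p = 0.426), both below the highest tag on all arrays. A dimmer egr1 probe set, which was not tested, differed by 0.57. The homeobox gene hoxb4a and the cytokine kinase gene jak2a followed, at 0.36 and 0.23 (adjusted p = 0.67 and 0.703). The median was 0.0065 without glucose replicate 2 and -0.11 without control replicate 1.

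Red cell genes, many of them known targets of Gata1 and Klf1 in mammals, stood at higher values in glucose. Of 58 listed, 30 were measured and 27 tested, 25 had higher and 2 lower values, and the median difference was 0.28. In limma with an intensity trend 7 of the 27 rose, against 1.29% of all probe sets, and none fell. They were the globins hbbe2 and hbbe3, the haem synthesis enzyme alas2, the anion exchanger slc4a1a, the membrane skeleton genes epb41b and sptb, and the carbonic anhydrase cahz. The spectrin gene sptb had 466 and 567 in glucose embryos, against 250 and 330 in control embryos, a difference of 0.84 (adjusted p = 0.0291). For cahz the values were 1502 and 1576 in glucose embryos, against 946 and 1185 in control embryos, a difference of 0.54 (adjusted p = 0.075). The globin hbbe3 differed by 0.35 (adjusted p = 0.0797), and its probe set may also bind transcripts of near-identical globins. The 7 differences ran from 1.27-fold for hbbe3 to 2.14-fold for epb41b, beside 1.52-fold for gata1a and 0.88-fold for klf1. All of them come from the same arrays. Without glucose replicate 2 the count was 3, and without the trend it was 0.

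**Figure D4:**
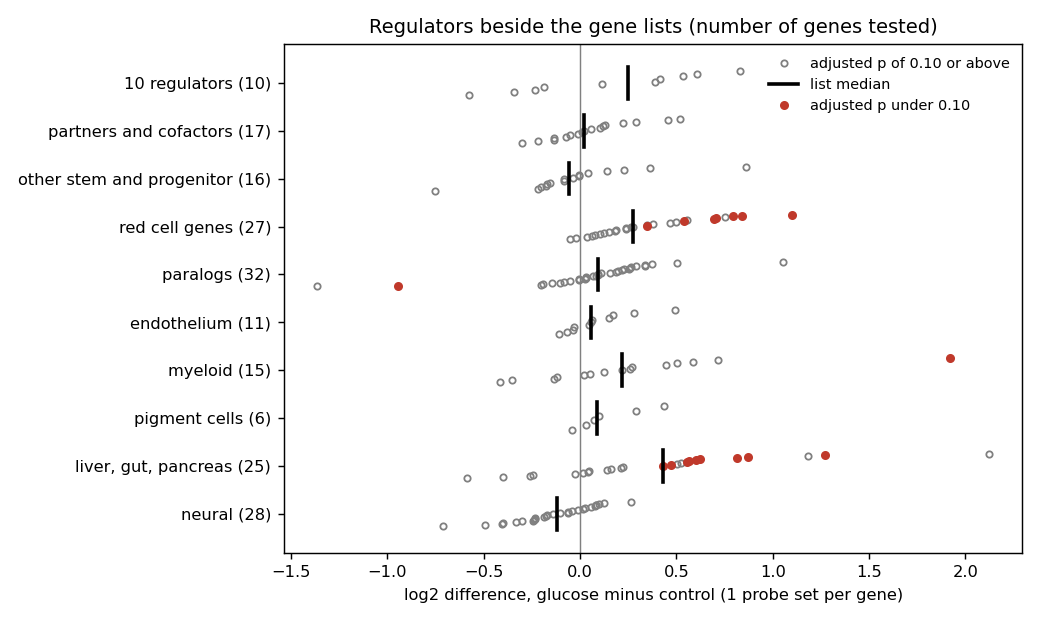
Log2 difference, glucose minus control, of the 10 regulators and of genes of related lists, with 1 probe set per gene. Filled red points passed limma with an intensity trend at an adjusted p under 0.10, open points did not, and black bars are list medians. The median is 0.25 for the regulators, 0.28 for red cell genes, 0.43 for liver, gut and pancreas genes and -0.12 for neural genes; 0 of 10 regulators are filled.

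Several regulators are also used outside blood, so markers of those cell types are given beside them; their part in the regulators' values was not tested. For endothelium, where tal1, lmo2, hhex and gata2a are also active, 11 of 28 listed genes were measured, the median difference was 0.06 and none passed. Without glucose replicate 1 that median was 4e-04 and without glucose replicate 2 it was 0.17. Their summed intensity was 7515 to 7640 in glucose and 7073 to 7190 in controls, with 4 of the 11 below the highest tag on every array. Such sums follow the brightest probe sets of a list. For the regulators the sums were lower in glucose (3874 to 3973, against 4052 to 4317 in controls), although their median difference was 0.25. The artery ligand efnb2a and the vein and lymph vessel receptor flt4 had the smallest p, at 0.50 and 0.28 (limma with an intensity trend, adjusted p = 0.426 and 0.684). For pigment cells, which carry kita, 7 of 17 genes were measured with sums of 12284 to 12303 in glucose and 11763 to 12213 in controls. Of the 6 tested, 5 had higher and 1 lower values, with a median of 0.09, and leaving out glucose replicate 1 or 2 gave medians of 0.23 and 0.0162. None passed with all 4 arrays; the neural crest factor sox10 differed by 0.44 (adjusted p = 0.285), the melanosome gene pmelb by 0.29 (adjusted p = 0.668), the pigment cell factor mitfa by 0.10 and the melanin enzyme dct by -0.04. Leaving out control replicate 1 or 2 gave pigment cell medians of 0.075 and 0.058.

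For liver, gut and pancreas, where hhex is needed, 25 of 34 genes were measured, 20 had higher and 5 lower values, and the median was 0.43. Of the 25, 6 were below the highest tag on every array. In limma with an intensity trend 9 rose (apoa4b.1, apoba, fabp2, serpina1l, ambp, tfa, fga, fgb and fgg, all genes of lipid transport or secreted plasma proteins), against 1.29% of all probe sets, and 5 without glucose replicate 1 or without glucose replicate 2. The summed intensity was 95548 to 100008 in glucose and 73707 to 78839 in controls. For neural tissue, where meis1b and gata2a are active, 28 of 31 genes were measured, 9 had higher and 19 lower values, with a median of -0.12 and sums of 46094 to 46403 in glucose and 50047 to 51221 in controls. None of these passed in limma with an intensity trend; the photoreceptor factor crx and the proneural factors ascl1b, neurod1 and neurog1 had the smallest p, with differences of -0.71, -0.41, -0.49 and -0.40 (adjusted p = 0.13, 0.142, 0.177 and 0.214). The list's call depended on the setting: 1 or 2 neural genes passed lower in 5 of the other settings that keep all 4 arrays. Over all, between 78 (a gene's probe sets averaged) and 130 (mean above the highest tag) passed lower in those settings. Without control replicate 1 the neural median was -0.11. Dimmer second probe sets of the neuronal cytoskeleton genes tubb5 and stmn1b also fell, by 0.85 and 0.70 (limma with an intensity trend, adjusted p = 0.0274 and 0.0391). The brightest probe sets of tubb5 and stmn1b did not pass. Dimmer probe sets of other listed neural genes lay on both sides of 0 and did not pass. Examples are 0.48 for pax2a and 0.34 for isl1a, against -1.53 for gng3 and -0.58 for nova2. For myeloid cells 16 of 22 genes were measured and 15 tested, with 11 higher and 4 lower values and a median of 0.22. In limma with an intensity trend 1 of the 15 rose, the cathepsin gene ctss2.1 (adjusted p = 7.38e-07), against 1.29% of all probe sets. It had 1571 and 1550 in glucose embryos, against 386 and 439 in control embryos. The myeloid sums, in which ctss2.1 weighs heavily, were 9698 to 9844 in glucose and 7410 to 7615 in controls.

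Of 50 listed paralogs and relatives of the regulators, 34 were measured and 32 tested, 22 had higher and 10 lower values, and the median was 0.09. A single one passed, klf2b, a relative of klf1. Its paralog klf2a did not (difference -0.20, limma with an intensity trend, adjusted p = 0.777), and the klf2a groups overlapped. The klf2b values were 323 and 246 in glucose embryos, against 537 and 547 in control embryos. That was a difference of -0.94 (limma with an intensity trend, adjusted p = 0.01), where 0.712% of all probe sets passed lower. The call was lost without glucose replicate 2, and also in limma without the intensity trend (adjusted p = 0.498).

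**Figure D5:**
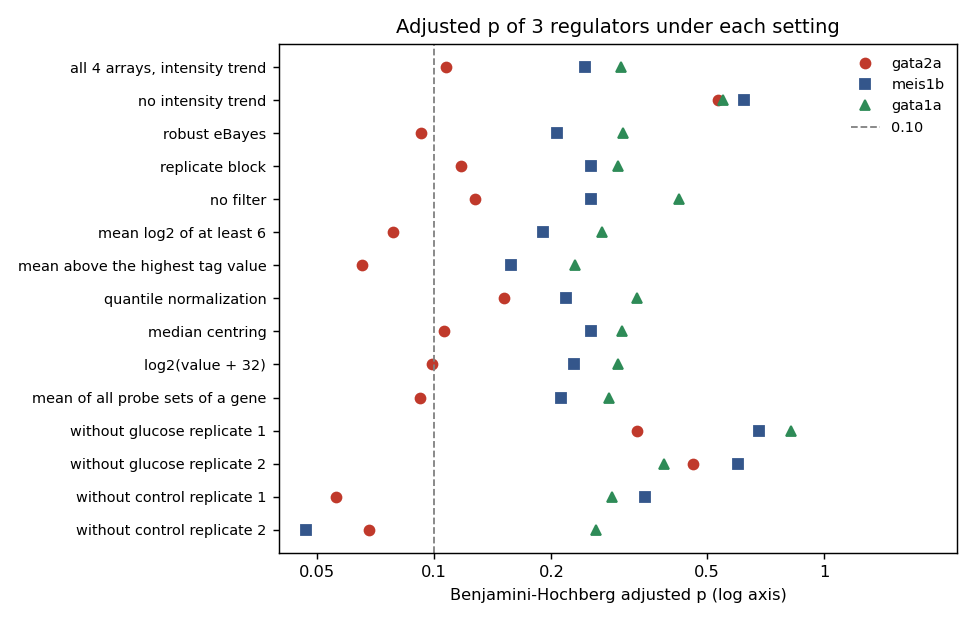
Benjamini-Hochberg adjusted p (log axis) of gata2a, meis1b and gata1a over all tested probe sets, with all 4 arrays and under each other setting; the dashed line is 0.10. Values for gata2a lie on both sides of the line, up to 0.534 without the trend, and those for gata1a above it. The 1 meis1b value under the line comes from a fit that leaves 1 control array.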

How the data were processed

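The deposited table holds linear intensity values, 1 for each probe set on each array. GCRMA is the tool named by the submitters' processing notes, yet a mean trimmed by 2% of values on either side gives 500.15 or 500.16 for every array and low values are noisy, which are features of another method; the method and any background subtraction are unknown. Symbols came from the platform annotation, updated by gene identifier through RefSeq GRCz12tu (names only). Control probe sets were left out. Of the rest, 10795 have 1 gene, 135 several and 4572 none listed. Probe sets with a log2 of at least 5 on at least 2 arrays were tested, without further scaling, by limma 3.58.1 (R 4.3.3, lmFit, eBayes with an intensity trend, no covariates), and p-values were adjusted by Benjamini-Hochberg over all 13628, with 0.10 as the threshold. Each probe set has 2 residual degrees of freedom, so the number of arrays limits the precision. Intervals are 95% and not adjusted. Lists used the brightest probe set of each gene, and were matched by symbol or by a unique synonym. The code was tested on simulated data. Python 3.11.15, pandas 2.3.3 and matplotlib 3.10.9 made the tables and plots.

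The members, lists, test and settings were chosen with earlier results of these data known, the intensity trend among them. The text names every regulator and the partners. In each other list it names the genes whose brightest probe set passed or else up to 4 of smallest p. The genes klf2a, tubb5, stmn1b, pax2a, isl1a, gng3 and nova2 were added once their values were known. The other settings were no trend, robust eBayes, each array left out, the replicate block, 3 filters, 2 normalizations, an offset of 32, a threshold of 0.05 and averaging a gene's probe sets.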

Additional observations from a re-analysis of the deposited data

How the results depend on the processing

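With all 4 arrays and the intensity trend, 176 probe sets passed higher and 97 lower. Without the trend these counts were 0 and 0, with no filter 117 and 57, and at a threshold of 0.05 they were 110 and 51. With 1 array left out they lay between 88 and 578 higher and between 59 and 356 lower; the lone array of a group is then assumed to vary like the others. Among the regulators 1 passed higher, gata2a, with robust eBayes, with a mean log2 of at least 6, with a mean above the highest tag, with the offset of 32 and with a gene's probe sets averaged. Over all probe sets, 186 of 13628, 202 of 11063, 222 of 9057 and 184 of 13628 passed higher in the first 4 of these. With probe sets averaged it was 149 of 11933. With a mean above the highest tag only 4 regulators were tested. The count of regulators was 0 to 1 higher and 0 to 1 lower when 1 array was left out. Of 143 regulator results under other settings, 132 kept their direction and their side of the threshold, 8 passed it (7 for gata2a, 1 for meis1b) and 3 turned: klf1 to 0.10 without glucose replicate 2, lmo2 to 0.0408 without glucose replicate 1 and tal1 to -0.0189 without control replicate 2. Only the normalizations, the offset and leaving out an array can change a regulator's difference, so the other settings kept its direction by construction. With 1 array left out klf1 lay between -0.47 and 0.10, lmo2 between -1.19 and 0.0408 and tal1 between -0.0189 and 0.24. The cause was not tested. Replicate numbers are shared by both groups, but no label ties them to a batch or clutch, and the deviations of same-numbered arrays correlated by -0.02 across probe sets. With the replicate block 188 probe sets passed higher and 113 lower, and no regulator did (gata2a adjusted p = 0.117). Signal limits the dim regulators: 2 of 10 were above the highest tag on no array.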
